A study of Homo sapiens with 4 samples.

Results

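The neuropeptide Y family genes described here are the receptor genes NPY1R, NPY5R and NPY2R and the peptide genes NPY and PYY, 5 of the 18417 genes that could be named on 4 Affymetrix Human Gene 1.0 ST arrays. NPY1R was chosen because it was already known to be among the genes with the largest increase on these arrays, and the others were chosen as its relatives. The differences between groups for these 5 genes are therefore given as a description and without a test. RNA came from MDA-MB-468, a human breast cancer line in which the p53 protein is the R273H mutant. In 2 samples a lentiviral shRNA against that p53, p53si-1, had been introduced, and in the other 2 a non-targeting lentiviral shRNA (NS). All 4 came from the same line, which bears mutant p53 in both groups, and only 1 shRNA against p53 was used, so an effect of its sequence and an effect of p53 loss cannot be told apart. The interval between transduction and harvest is not the same in the study's methods and in its results and is not given here. The experiments are described as independent, in duplicate.

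Neuropeptide Y and peptide YY are secreted peptides that carry an amidated carboxyl terminus. They act on G-protein-coupled receptors of which Y1, Y2 and Y5 are encoded by NPY1R, NPY2R and NPY5R, and which couple mainly to inhibitory G proteins that lower cyclic AMP. The Y1, Y2 and Y5 receptors bind the full-length peptides, while the protease DPP4 shortens them to forms that prefer Y2 and Y5. NPY1R and NPY5R lie next to each other on chromosome 4 and are transcribed in opposite directions. In breast tumors the Y1 receptor is a known surface protein, and NPY1R is known as an estrogen-responsive gene.

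Since NPY1R and NPY5R had the largest differences in the family, the sequences around their start sites are shown, as RefSeq gives them for build GRCh38.p14. Each run holds the 250 bases before and the 50 bases from the start site, 5′ to 3′ on the strand of the gene, and capitals mark the letters CACGTG, an E-box. The NPY1R sequence is the minus strand of chr4:163332547-163332846. The NPY5R sequence is the plus strand of chr4:163343642-163343941.
NPY1R: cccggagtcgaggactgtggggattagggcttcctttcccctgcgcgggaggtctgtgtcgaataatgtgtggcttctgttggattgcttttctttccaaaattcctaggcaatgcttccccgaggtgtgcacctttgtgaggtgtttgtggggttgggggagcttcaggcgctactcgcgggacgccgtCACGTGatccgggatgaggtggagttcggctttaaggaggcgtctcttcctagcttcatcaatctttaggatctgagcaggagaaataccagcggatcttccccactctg
NPY5R: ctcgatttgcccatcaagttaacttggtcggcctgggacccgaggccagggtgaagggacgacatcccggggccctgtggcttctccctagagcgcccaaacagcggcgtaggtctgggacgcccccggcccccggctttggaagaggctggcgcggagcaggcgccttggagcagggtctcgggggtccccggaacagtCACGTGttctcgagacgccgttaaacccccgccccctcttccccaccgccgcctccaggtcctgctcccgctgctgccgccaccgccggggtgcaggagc

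The start sites of these sequences are 11296 bases apart. The E-box begins 60 bases before the start site of NPY1R and 50 bases before that of NPY5R. Among all 35116 promoter sequences of the same length, 7.26% held CACGTG, which reads the same on both strands. RefSeq lists a second start site for NPY5R, whose sequence held none, and the sequences of NPY2R, NPY and PYY held none either. Both strands were also searched for other letters. TGACG, a core of the cyclic AMP response element, was found once in the NPY1R sequence, on the opposite strand and overlapping the E-box. It was also found in 1 PYY sequence and in 24.6% of all sequences. GGTCA, an arm of the estrogen response element, was not found around the start sites of NPY1R and NPY5R. It was found in both sequences listed for PYY and in 37.4% of all sequences. GGGCGG, a GC box, was found for NPY5R, NPY and PYY, not for NPY1R, and in 45% of all sequences. The TATA box, the CCAAT box and the full cyclic AMP and estrogen response elements were not found for any of the 5 genes. CACGTG was thus 1 of several patterns searched. The decamer bound by p53 was searched as its pattern of purines, pyrimidines and fixed letters, with no mismatch allowed. It was not found in the sequences of any of the 5 genes and was found in 6.63% of all. These are matches of letters only, and no binding was measured.

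NPY1R, which encodes the Y1 receptor, had the largest difference of the family. Its log2 RMA signal, the summarized and normalized brightness of its probes, was 9.61 and 10.06 on the p53si-1 arrays, against 8.71 and 9.17 on the NS arrays. Both p53si-1 arrays were above both NS arrays, with a gap of 0.44 between the lowest p53si-1 array and the highest NS array. The means were 9.83 ± 0.317 with p53si-1 and 8.94 ± 0.325 with NS shRNA (SD, n = 2 arrays each). The log2 difference was 0.90, or 1.86-fold, the 11th highest of 18417 genes. Of all genes, 50, or 0.271%, were over 1.5-fold higher with p53si-1, and 3668, or 19.9%, had both p53si-1 arrays above both NS arrays. NPY1R was chosen from within these counts, so they are background only. Single arrays moved the first of these counts, to 110 without p53si-1 replicate 1 and to 85 without NS replicate 1. When each array was left out in turn, its difference ran from 0.67 to 1.13.

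NPY5R, which encodes the Y5 receptor, a receptor known for its part in feeding in the rodent brain, differed in the same direction. Its signal was 8.09 and 8.38 on the p53si-1 arrays, against 7.57 and 7.74 on the NS arrays. The groups did not overlap, and the gap between them was 0.34. The means were 8.23 ± 0.203 with p53si-1 and 7.66 ± 0.122 with NS shRNA (SD, n = 2 arrays each). The log2 difference of 0.57, or 1.49-fold, was the 53rd highest of all genes and lay just under the 1.5-fold mark. It ran from 0.43 to 0.72 when each array was left out in turn, so it was over 1.5-fold without p53si-1 replicate 1 (0.72) or NS replicate 2 (0.66). With array medians subtracted and all 4 arrays kept it was 0.59, which is also over 1.5-fold.

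The 4 arrays fell in the same order for both of these receptor genes. The highest was p53si-1 replicate 2, followed by p53si-1 replicate 1, NS replicate 2 and NS replicate 1. For NPY1R the replicate 2 array exceeded the replicate 1 array by 0.45 with p53si-1 and by 0.46 with NS shRNA. For NPY5R this was 0.29 with p53si-1 and 0.17 with NS shRNA. Across all genes the SD of the same difference was 0.18 with p53si-1 and 0.17 with NS shRNA. Only 38 genes, or 0.206%, were higher in replicate 2 by over 0.4 in both groups, a mark set after the values of NPY1R had been seen. The difference between the groups was larger than the difference between replicates for NPY1R and for NPY5R. What the replicate number stands for was not tested.

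NPY2R, which encodes the Y2 receptor, a presynaptic receptor that limits release of the peptide in neurons, gave a value of 3.90 on every array. Of all 33297 transcript clusters in the deposited values, 7 have 1 and the same value on all 4 arrays, at log2 signals of 2.56 to 4.55. A change in NPY2R could not be seen from such a value, and the SD of 0 is no measure of precision.

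The peptide genes showed no separation of the groups. The signal of NPY was 4.86 and 4.79 on the p53si-1 arrays, against 4.85 and 4.74 on the NS arrays. The groups overlapped, with means of 4.83 ± 0.051 and 4.80 ± 0.078 (SD, n = 2 arrays each) and a log2 difference of 0.03. PYY, the gene of the gut hormone peptide YY, was at 5.48 and 5.18 on the p53si-1 arrays, against 5.25 and 5.19 on the NS arrays. Only p53si-1 replicate 1 was higher, and the other p53si-1 array lay below both NS arrays. The means were 5.33 ± 0.211 with p53si-1 and 5.22 ± 0.044 with NS shRNA (SD, n = 2 arrays each), a log2 difference of 0.11. Without p53si-1 replicate 1 it was -0.04, so 1 array set its sign.

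The median of the mean signals of all genes was 6.59. NPY1R and NPY5R had signals above it on every array, while NPY2R, NPY and PYY were dim on every array. Such dim signals cannot be told apart here from the background of the array, for which no value was used. Probes differ in brightness, so the signals of different genes are not amounts of RNA that can be set against each other. In bulk RNA, more cells with a transcript and more transcript per cell cannot be told apart.

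Of the other family genes, the receptor pseudogene NPY6R was at 3.66 and 3.41 on the p53si-1 arrays, against 3.88 and 3.44 on the NS arrays. The groups overlapped, and the log2 difference of -0.12 did not pass (adjusted p = 0.821 from limma). PPY, the gene of pancreatic polypeptide, was not matched by name, and the receptor genes NPY4R and NPY4R2 share 1 transcript cluster and are not reported. Of 18417 genes tested with limma, 6, or 0.0326%, were higher and 14, or 0.076%, were lower with p53si-1 at an adjusted p under 0.05, with adjustment over all genes. Fits without 1 array leave only 1 in a group and lose power. They therefore cannot show how far these calls rest on any array. Regardless of a test, 4160, or 22.6%, had both p53si-1 arrays below both NS arrays.

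The genes next to NPY1R and NPY5R were examined because the pair differed together. In the RefSeq annotation the extent of NPY1R over all its transcripts reaches past the start of NPY5R, so the genes overlap there, although the promoter sequences shown above lie apart. Of the 5 nearest protein-coding genes on each side, 8 were measured, and SMIM31 and APELA were not matched by name. None of the 8 differed by over 1.5-fold or passed at an adjusted p under 0.05 from limma, while 4 had both p53si-1 arrays above both NS arrays, against 19.9% of all genes, and 0 had both below, against 22.6%. Of the 4, SPMIP2 was dim. Their median log2 difference was 0.13, against -0.01 over all genes. NAF1, a factor for assembly of box H/ACA ribonucleoproteins, is the nearest on the NPY1R side. It was at 6.16 and 6.50 on the p53si-1 arrays, against 6.09 and 6.21 on the NS arrays, which overlap. TKTL2, a transketolase-like gene next to NPY5R, was dim, at 4.39 and 4.12 on the p53si-1 arrays and 4.04 and 4.59 on the NS arrays. TMA16, the gene after it, was at 8.40 and 8.45 on the p53si-1 arrays, against 8.07 and 7.99 on the NS arrays. Its groups did not overlap, with a log2 difference of 0.40 (standard error 0.08, adjusted p = 0.16 from limma), the largest of the 8. FNIP2, a folliculin-interacting protein, and RAPGEF2, an exchange factor for the GTPase Rap, followed at 0.34 and 0.32 (adjusted p = 0.207 and 0.232 from limma). SPMIP2 was at 0.08, MARCHF1 at 0.06 and FSTL5 at -0.05, all of them dim.

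The genes whose pattern over the 4 arrays was most like that of NPY1R were found by the Euclidean distance between log2 signals after each gene's mean had been subtracted. With 4 arrays and NPY1R chosen for its difference, this is a description. The nearest was SLC6A14, an amino acid transporter, at a distance of 0.16, against a median of 1.03 over 18416 genes. Its signal was 5.65 and 6.04 on the p53si-1 arrays, against 4.55 and 5.05 on the NS arrays. KIAA0319 (0.203), a membrane protein of neurons, and HTR2A (0.229), which encodes the serotonin receptor 5-HT2A, came next. HTR2A was at 8.16 and 8.78 on the p53si-1 arrays, against 7.58 and 7.82 on the NS arrays. TRAPPC2 (0.31), a subunit of a vesicle tethering complex, and TULP3 (0.323), a protein of ciliary traffic, followed. All 5 had both p53si-1 arrays above both NS arrays, against 19.9% of all genes, and replicate 2 above replicate 1 in both groups. These genes were picked for nearness to that very pattern, so nothing is read from this. NPY5R was 15th by this distance, at 0.398.

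A list of 53 other receptors for peptide ligands was compared with NPY1R and NPY5R, and 52 of them were measured. None passed at an adjusted p under 0.05 in either direction (lowest adjusted p = 0.198 from limma), and none differed by over 1.5-fold. Their log2 differences ran from -0.36 to 0.19 with a median of -0.03, against -0.01 over all genes. NPY1R at 0.90 was chosen for its difference and NPY5R at 0.57 with it, so nothing is read from their place above this range. The lowest were BDKRB1, the bradykinin B1 receptor, at -0.36, the neuropeptide FF receptor NPFFR1 at -0.23, the melanocortin receptor MC3R at -0.22 and the oxytocin receptor OXTR at -0.21. BDKRB1 was at 4.41 and 4.33 on the p53si-1 arrays, against 4.68 and 4.79 on the NS arrays. Of the 52, 50 had mean signals under 6.59, the median over genes. RMA shrinks changes of dim genes, so a change in the dimmer of them could have been missed.

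Across lists for the peptides' processing, signaling and regulation, which with the receptors above hold 140 genes of which 127 were measured, 0 genes were higher and 0 were lower at an adjusted p under 0.05 from limma. At an unadjusted p under 0.05 from limma there were 17 of the 127, against 2257, or 12.3%, of all genes. By this pooled count alone the listed genes were near the share of all genes. Counts of genes whose groups did not overlap differed between the lists and are given below. By fold, 0 were over 1.5-fold higher and 2 were over 1.5-fold lower, against 0.271% and 0.652% of all genes (50 and 120 genes, the second count being 185 without p53si-1 replicate 1). The median of the 127 differences was -0.05.

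Both genes past 1.5-fold handle peptides, and both had signals under 6.59, the median over genes, on every array. FAP was dim, with signals near those of NPY, which cannot be told apart here from array background. FAP, a membrane protease related to DPP4, was at 4.33 and 4.21 on the p53si-1 arrays, against 5.02 and 5.04 on the NS arrays. Its groups did not overlap, and its log2 difference was -0.76 (standard error 0.09, adjusted p = 0.0581 from limma). CPE, the carboxypeptidase that trims peptide precursors in secretory granules, was at 5.51 and 5.79 on the p53si-1 arrays, against 6.08 and 6.43 on the NS arrays. This is a log2 difference of -0.60 (standard error 0.15, adjusted p = 0.205 from limma). Of the 7 measured genes of this list, 2 were thus over 1.5-fold lower, against 0.652% of all genes. Without NS replicate 2, FAP was the only gene of the 127 past 1.5-fold, and without p53si-1 replicate 1 GNAI2 (-0.59) was past it and CPE was not. DPP4 itself was at 5.45 and 5.71 on the p53si-1 arrays, against 5.43 and 5.56 on the NS arrays, and XPNPEP2, an aminopeptidase, was at a difference of 0.21. PAM, which amidates the peptides, was at 0.06, and the peptidase MME was at 0.00, the median of the list.

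Among 16 measured genes of inhibitory G proteins and of beta-gamma subunits, means were lower with p53si-1 for 13, against 52.6% of all genes, with a median of -0.09. Both p53si-1 arrays were below both NS arrays for 9 of the 16, against 22.6% of all genes. They were above for 2, against 19.9%. No list was tested as a set. GNG12, a gamma subunit, was at 10.23 and 10.20 on the p53si-1 arrays, against 10.74 and 10.79 on the NS arrays. Its log2 difference of -0.55 did not pass (standard error 0.08, adjusted p = 0.0763 from limma). GNAI2, an inhibitory alpha subunit, was at 8.93 and 8.58 on the p53si-1 arrays, against 9.21 and 9.13 on the NS arrays, a difference of -0.42 (adjusted p = 0.286 from limma). GNG7 and GNB4 were at -0.27 and -0.18. GNAI1 and GNAI3, the other GNAI alpha subunits, were at -0.05 and -0.14.

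Of 20 genes of the cyclic AMP pathway, 13 had a lower mean, against 52.6% of all genes, and the median was -0.10. Both p53si-1 arrays were below both NS arrays for 10 of the 20, against 22.6% of all genes, and above for 3, against 19.9%. ADCY7, an adenylyl cyclase, was at 6.74 and 6.67 on the p53si-1 arrays, against 7.24 and 7.15 on the NS arrays, a log2 difference of -0.49 (adjusted p = 0.105 from limma). Subunits of protein kinase A lay on both sides. The catalytic subunit gene PRKACB was at -0.42 (adjusted p = 0.256 from limma), and the regulatory subunit genes PRKAR2A and PRKAR2B were at 0.43 and 0.25 (adjusted p = 0.176 and 0.358 from limma). Receptor kinases and arrestins, which shut receptors off, had a median of -0.15 over 6 measured genes, with GRK4, GRK5, GRK3 and ARRB1 at -0.25, -0.19, -0.18 and -0.13. Of these 6, 5 had both p53si-1 arrays below both NS arrays, against 22.6% of all genes, and 0 had both above, against 19.9%. Genes of phospholipase C, protein kinase C and the ERK cascade had a median of -0.03 over 10 measured genes. Both p53si-1 arrays were below both NS arrays for 4 of these 10, against 22.6% of all genes, and above for 1, against 19.9%. PRKCA was the lowest of them at -0.39, PLCB3 and PLCB4 were at -0.23 and -0.16, and PLCB1 was the highest at 0.23.

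Since NPY1R is known as an estrogen-responsive gene, the estrogen receptor and genes of luminal breast epithelium were listed. None of 15 measured genes passed in either direction, and their median was -0.01. ESR1, the estrogen receptor, was dim, at 4.31 and 4.56 on the p53si-1 arrays, against 4.62 and 4.37 on the NS arrays. The target genes PGR, GREB1 and TFF1 were dim as well, with log2 differences of -0.03, -0.04 and 0.06. Other genes of the list were bright, with 8 of 15 above 6.59. XBP1 and GATA3, transcription factors of luminal cells, had means of 10.91 and 8.86 with p53si-1 and of 10.88 and 8.81 with NS shRNA, and the cyclin gene CCND1 and the secreted protein gene STC2 were at differences of -0.10 and -0.22. MYB, a transcription factor of luminal cells, was at 7.79 and 7.68 on the p53si-1 arrays, against 7.27 and 7.25 on the NS arrays. Its log2 difference was 0.48 (adjusted p = 0.109 from limma). FOXA1, which opens chromatin for the estrogen receptor, was at 7.55 and 7.24 on the p53si-1 arrays, against 6.94 and 6.99 on the NS arrays, a difference of 0.43 (adjusted p = 0.244 from limma). Both p53si-1 arrays were above both NS arrays for 3 of the 15, MYB, FOXA1 and the zinc transporter SLC39A6 (0.28), which is near the 19.9% of all genes, and IGFBP4 was the lowest of the list at -0.28.

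The epithelial identity of the line was seen in 7 measured markers, which had mean signals of 9.46 to 12.42, EPCAM, KRT8, KRT18, KRT19 and EGFR among them. KRT5, a keratin of basal cells, was at 9.85 and 9.80 on the p53si-1 arrays, against 10.36 and 10.12 on the NS arrays, a log2 difference of -0.41 (adjusted p = 0.217 from limma), and its part in the result for NPY1R was not tested. Of markers of other cells, 7 of 8 neuronal and neuroendocrine genes were under 6.59, CHGA, SYP and STMN2 included, and INSM1 was at a mean of 6.78. Summed over the 8, their log2 signals ranged from 38.35 to 39.29 on the p53si-1 arrays and from 38.46 to 38.66 on the NS arrays. Of leukocyte markers 3 of 4 were under 6.59, with PTPRC dim and CD14 bright at 9.78. Of fibroblast markers 4 of 5 were under 6.59, with LUM dim and COL1A1 at 7.21. All 5 fibroblast markers had a lower mean with p53si-1 (log2 differences of -0.15 to -0.08), against 52.6% of all genes. For 3 of them both p53si-1 arrays were below both NS arrays, against 22.6% of all genes. Their summed log2 signals were 25.43 to 25.76 on the p53si-1 arrays and 26.00 to 26.32 on the NS arrays. These sums do not overlap, and their part in the result for NPY1R was not tested. The endothelial markers PECAM1, VWF and CDH5 were dim. KDR, a receptor of vascular endothelial growth factor, was at 8.91 and 9.18 on the p53si-1 arrays, against 8.36 and 8.73 on the NS arrays. Its log2 difference of 0.50 went in the direction of NPY1R and did not pass (adjusted p = 0.275 from limma). Over the 4 endothelial markers the summed log2 signals were 22.25 to 22.44 on the p53si-1 arrays and 21.59 to 22.52 on the NS arrays, which overlap, and their part in the result for NPY1R was not tested.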

How the data were processed

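Gene expression was measured on 4 arrays of MDA-MB-468 cells, grouped as p53si-1 or NS from the sample titles. The authors deposited log2 RMA signals, 1 per transcript cluster and array. GCOS, Affymetrix Expression Console and RMA are listed in the submitters' processing notes. The RMA settings were not given in the sources used here. The log2 scale was judged from the values, which run from 1.75 to 14.31, with array medians of 5.68 and 5.66 for p53si-1 and 5.66 and 5.69 for NS. RMA equalizes the arrays and shrinks changes of dim genes.

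Of 33297 clusters, 19460 name 1 gene in the platform annotation, and the brightest cluster of a symbol was used. NPY1R, NPY2R, NPY5R, NPY and PYY each have 1. Symbols of lists not found in the annotation are not analysed here, nor is the p53 transcript. Group means were compared with limma 3.58.1 in R 4.3.3 (lmFit, eBayes), with Benjamini-Hochberg adjustment over 18417 genes and no filter. The fit was run on simulated data with independent noise between arrays, which checks the code and not the calls here. An exact permutation of 4 arrays could not give a two-sided p under 0.333, and precision is limited by the number of arrays. The family members, the lists, the tests and the alternatives were chosen with earlier results of these arrays known.

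Named were the 5 family genes, up to 4 genes per list (those at an adjusted p under 0.05 first, then by size of difference), 5 genes of like pattern, the chromosomal neighbours and the cell markers. Other list genes, such as PAM, MME, GNAI1, GNAI3, ESR1, PGR, GREB1, TFF1, XBP1, GATA3, CCND1 and STC2, were named for their role after their values were seen. Alternatives changed the cluster per gene, the scaling, the filter on dim genes, the prior variance, the replicate block and the arrays included.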

Additional observations from a re-analysis of the deposited data

How the results depend on the processing

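Of 45 values of the family differences under other settings, 44 moved by less than the spread between replicates or were the same after rounding. Many of these could not have come out otherwise, so the count does not measure stability. With 2 arrays per group, leaving 1 out cannot move a difference by more than this spread. Each family gene has 1 cluster, so the choice of cluster changes nothing, and the spread of NPY2R is 0. NPY2R moved from 0 to 0.01 after subtraction of array medians, which shifts its constant value. NPY1R stayed between 0.67 and 1.13 and NPY5R between 0.43 and 0.72. Within arrays of the same replicate number the differences were 0.90 and 0.89 for NPY1R and 0.52 and 0.63 for NPY5R. The sources do not say that the number pairs the arrays, and across genes same-numbered arrays deviated together with a correlation of 0.24. The signs of NPY and PYY changed when single arrays were left out, with ranges of -0.03 to 0.08 and -0.04 to 0.26.

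At an adjusted p under 0.05, limma called 20 genes in the fit above. The count was 62 with array medians subtracted and 174 without dim genes. Dim here means a mean signal under the median over all transcript clusters, not under the median over genes of 6.59. The count was 149 with a prior variance that follows the signal, 4 with a robust prior and 12 with the replicate number as a block. Counts of calls without 1 array are not given, since such fits hold only 1 array in a group and have little power. Genes over 1.5-fold higher numbered 61 to 110 and lower 133 to 185 without 1 array. Of the listed pathway genes, 0 in the fit above, FAP passed with array medians subtracted (1 gene), GNG12 without dim genes (1 gene), and both with the trend (2 genes). Past 1.5-fold there were 2, but 1 without dim genes, where FAP is not tested, and 1 to 2 without 1 array. The values of dim genes are limited by array background.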

Other observations

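Pseudogenes of the peptide genes, picked after their values were seen, also have transcript clusters of their own. PYY2 was at 6.98 and 6.96 on the p53si-1 arrays, against 6.66 and 7.00 on the NS arrays, and PPY2P was at 4.84 and 4.75 on the p53si-1 arrays, against 5.12 and 4.57 on the NS arrays. The groups overlapped for both, with log2 differences of 0.14 and -0.05.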
